A study of Mus musculus with 2 samples.

Results

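Transcripts of 7 genes that direct neutrophils into tissue were followed through the immune cells of the inflamed mouse colon: the chemokines Cxcl1, Cxcl2, Cxcl3 and Cxcl5, the chemokine receptors Cxcr2 and Cxcr4, and Csf3r, the receptor for granulocyte colony-stimulating factor. They were chosen by name from the 32228 genes counted, with earlier results of these data known. None of them was used to sort cells into classes. The cells were live CD45+ leukocytes sorted from the colonic lamina propria (LP), the connective tissue under the gut epithelium, of C57BL/6 mice aged 8 to 10 weeks. All mice had received dextran sulfate sodium (DSS), which injures the colonic epithelium and causes colitis. One group was WT and the other Ring1AKO, which lacks Ring1a, a subunit of Polycomb repressive complex 1. Cells of several mice were pooled into 1 library for each genotype with the 10× Genomics 3′ kit, whose unique molecular identifiers (UMIs) count 1 transcript each from its 3′ end, so that counts were not divided by gene length. With 1 library for each genotype there was no replicate check and no test, and the genotype, the pool of mice and the library preparation cannot be told apart.

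Cxcl1, Cxcl2, Cxcl3 and Cxcl5 are small secreted proteins that carry a glutamate-leucine-arginine motif before their first cysteines and attract neutrophils through the G protein-coupled receptor Cxcr2. Cxcr4 binds Cxcl12, which holds neutrophils in the bone marrow, so that Cxcr2 and Cxcr4 are known as opposing signals in neutrophil release. Csf3r drives the production and survival of neutrophils. In the inflamed gut the ligands are made by macrophages, stromal and epithelial cells and by neutrophils themselves, in response to interleukin 1, tumor necrosis factor and interleukin 17.

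In the GENCODE annotation of mouse GRCm38 the 4 ligand genes lie within one stretch of chromosome 5 on the plus strand. Cxcl5 (ENSMUSG00000029371) spans 90759360 to 90761624, Cxcl3 (ENSMUSG00000029379) 90786103 to 90789600, Cxcl1 (ENSMUSG00000029380) 90891241 to 90893115 and Cxcl2 (ENSMUSG00000058427) 90903871 to 90905938. Cxcr2 (ENSMUSG00000026180) and Cxcr4 (ENSMUSG00000045382) lie on chromosome 1, from 74153989 to 74161246 on the plus strand and from 128588199 to 128592293 on the minus strand. Csf3r (ENSMUSG00000028859) lies on chromosome 4 from 126024550 to 126044440 on the plus strand.

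The promoters of Cxcl1, Cxcl2 and Cxcl3 are shown because these 3 ligands were the members counted together in myeloid cells. Each stretch has 100 bases of the RefSeq sequence of GRCm38.p6 on the plus strand and ends before the first transcribed base of either annotation. Capitals mark the letters GGAATTTCC, the core of a binding motif of the transcription factor NF-κB, and the TATA-like letters ATAAAAG.
Cxcl1, chr5:90891135-90891234: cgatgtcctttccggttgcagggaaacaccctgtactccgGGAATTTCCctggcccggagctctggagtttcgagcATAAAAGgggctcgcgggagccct
Cxcl2, chr5:90903771-90903870: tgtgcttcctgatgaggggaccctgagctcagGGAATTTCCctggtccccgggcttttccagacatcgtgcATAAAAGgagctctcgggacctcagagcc
Cxcl3, chr5:90785991-90786090: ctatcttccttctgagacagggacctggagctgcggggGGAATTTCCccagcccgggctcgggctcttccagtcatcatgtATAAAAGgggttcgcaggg
Searched on both strands from 250 bases before to 50 after each RefSeq start, GGAATTTCC was held by 0.317% of 32851 promoter windows and ATAAAAG by 5.42%. RefSeq windows were at hand for 6 of the 7 members, all but Cxcl5. GGAATTTCC was found in those of Cxcl1, Cxcl2 and Cxcl3 and not in those of Cxcr2, Cxcr4 and Csf3r, and ATAAAAG was also found in that of Cxcr4. Other letters that NF-κB may bind were not searched, so that a window without GGAATTTCC may hold another form of its motif. A match of letters is a description and does not show that a factor bound there. The motifs did not overlap each other.

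Barcodes with at least 500 UMIs, at least 200 genes and less than 5% mitochondrial UMIs were kept, which gave 6262 cells in the WT library (median 6108.5 UMIs) and 8474 in the Ring1AKO library (median 4825), with 15 barcode sequences found in both. Ring1, the targeted gene, had 829 UMIs (13.4 CPM) and 824 UMIs (11.9 CPM), which does not check the genotypes, as 3′ reads cannot see a deletion farther upstream, and the libraries are named by their labels alone. Each cell was given to the class whose marker genes it carried most strongly. Neutrophils, led by S100a9, numbered 244 in the WT library and 267 in the Ring1AKO library, monocytes 951 and 275, C1q macrophages 232 and 298, dendritic cells 209 and 225 and CD4 T cells 594 and 528. In all of these classes each marker was higher than in the other cells of its library, except Ms4a4c in monocytes of the Ring1AKO library. The monocyte class was not alike in the libraries, since the summed level of 10 C1q macrophage markers in it was 1991 CPM and 4164 CPM. In dendritic cells that sum was 148 and 306 CPM. It was lower in the Ring1AKO library in neutrophils (351 and 272 CPM) and CD4 T cells (138 and 119 CPM). The neutrophil class was not alike either, as the summed level of its own 11 markers was 158113 CPM and 219255 CPM. Among them S100a9 was 76452 and 102898 CPM and Ly6g 148 and 342 CPM. Among dendritic markers, Ccr7 of mature cells was 807 and 1479 CPM, Irf8 of type 1 cells 1050 and 707 CPM and Flt3 207 and 189 CPM. The part of these differences in the ratios below was not tested. Levels below are in CPM, which is the count of a gene per 1000000 UMIs of its class, with exact 95% Poisson intervals in parentheses. Ratios are those of Ring1AKO over WT on the log2 scale after adding 1 UMI, with exact conditional 95% intervals. All intervals cover counting error only, not the spread between mice, and those of levels and ratios do not cover the spread between cells.

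**Figure D1:**
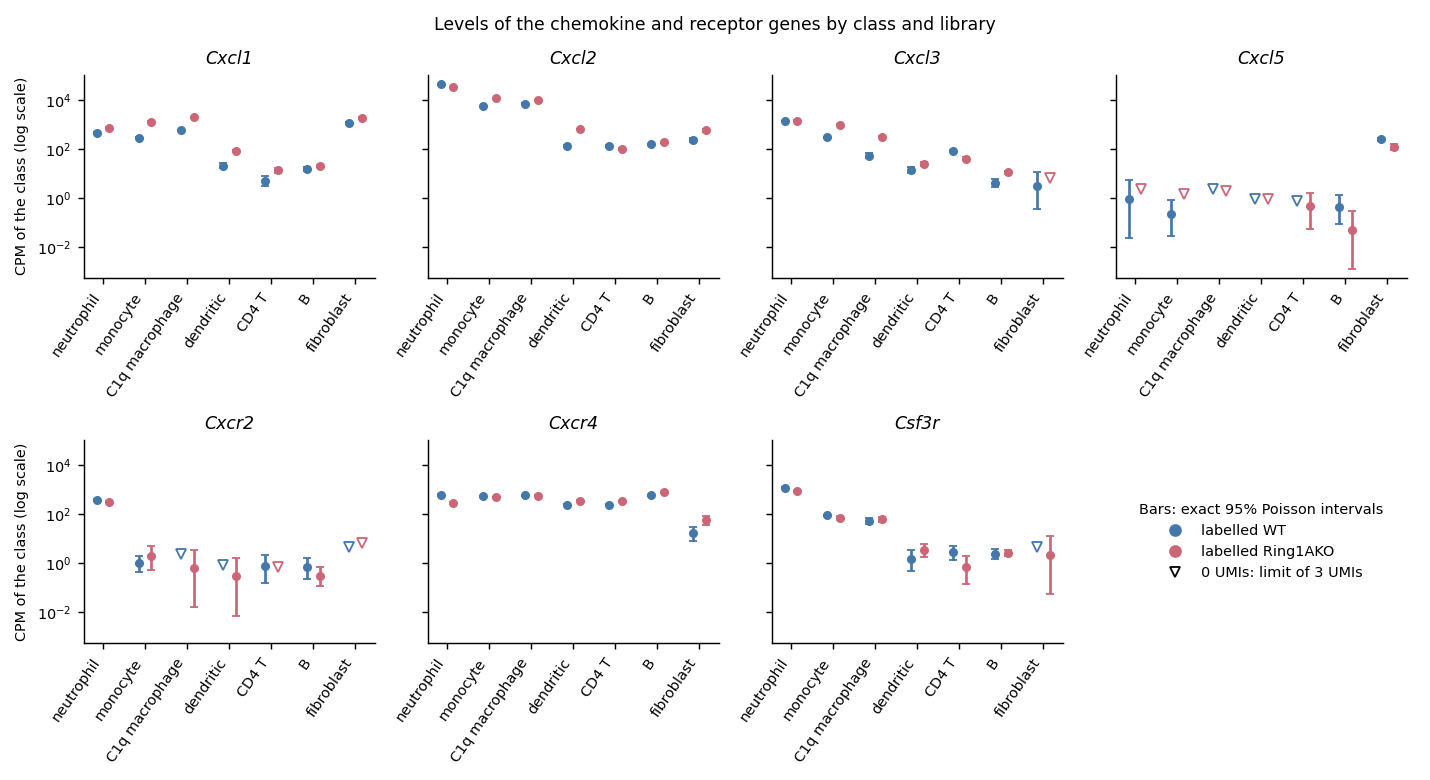
Level of each gene in 5 immune classes, B cells and fibroblast-gated barcodes, in CPM on a log axis, for the WT (blue) and Ring1AKO (red) libraries, with exact 95% Poisson intervals. Open triangles mark classes with 0 UMIs, drawn at the level of 3 UMIs. Cxcr2 was above 300 CPM in neutrophils and below 10 CPM elsewhere, whereas Cxcr4 was above 200 CPM in all 5 immune classes and in B cells.

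Cxcl2, a chemokine of activated myeloid cells, was by far the most counted of the ligands, and its level was highest in neutrophils. Its level in neutrophils was 45323 CPM (44918 to 45730) in the WT library and 34695 CPM (34371 to 35023) in the Ring1AKO library. The median neutrophil held 159 and 137 Cxcl2 UMIs, and 94.3% and 90.3% of neutrophils had at least 10. Thus almost every neutrophil carried the transcript, at a level that was somewhat lower in the Ring1AKO library, with a log2 ratio of -0.39 (-0.40 to -0.37). In monocytes the order was the opposite, with 5648 CPM (5598 to 5698) and 11699 CPM (11552 to 11848), a log2 ratio of 1.05 (1.03 to 1.07). The median monocyte went from 17 to 52 Cxcl2 UMIs, although the median depth was 9627 UMIs in WT monocytes and 7533 in Ring1AKO ones. C1q macrophages, the resident tissue type that carries complement C1q, had 7047 CPM (6901 to 7194) and 9837 CPM (9681 to 9995), a log2 ratio of 0.48 (0.44 to 0.52). Neutrophils therefore stood above monocytes and C1q macrophages in both libraries, by more than counting error.

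Lower levels of Cxcl2 were found in the other classes. Dendritic cells had 134 CPM (122 to 147) and 641 CPM (614 to 668), a log2 ratio of 2.25 (2.11 to 2.40). A Cxcl2 UMI was found in 84 of 209 and 116 of 225 dendritic cells, and a limit of fewer than 4000 genes per cell lowered the ratio to 1.12. CD4 T cells had 133 CPM (122 to 145) and 97.6 CPM (88.5 to 107). Free RNA, read from barcodes with fewer than 100 UMIs, held Cxcl2 at 1813 CPM and 1488 CPM, and at the share of free RNA taken from immunoglobulin genes it made up 34.5% and 49.7% of the level in CD4 T cells, against 0.128% and 0.172% in neutrophils. In CD4 T cells 12.5% and 11.5% of cells had a Cxcl2 UMI after thinning to 2000 UMIs each, and 13.3% and 11.8% of B cells. The free RNA estimate for B cells, 55.2% and 51.4% of the level, is only an upper limit, since B cells make immunoglobulin transcripts themselves. For Cxcl3 in B cells of the WT library the same estimate came to 106.6% of the level. Where the rest of the Cxcl2 in CD4 T cells came from was not tested, and no difference is read from it.

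Cxcl1, the ligand made by macrophages and stromal cells, was more abundant in the Ring1AKO library in each of the 5 immune classes. Monocytes had 289 CPM (277 to 300) and 1311 CPM (1262 to 1361), a log2 ratio of 2.18 (2.11 to 2.26). C1q macrophages had 572 CPM (531 to 615) and 2034 CPM (1963 to 2106), a log2 ratio of 1.83 (1.71 to 1.95). In neutrophils it was 456 CPM (416 to 499) and 719.6 CPM (673 to 768), a smaller difference of 0.66 (0.50 to 0.82). By summed UMIs neutrophils were above monocytes in the WT library and below them in the Ring1AKO library, by more than counting error in both. In the WT library the Cxcl1 UMIs of neutrophils came from 29 cells, and 1 of them held 25.3%. The thinned shares of cells with a UMI, given below, did not place WT neutrophils above WT monocytes. Free RNA accounted for 0.985% and 0.6003% of the level in monocytes and for 1.27% and 0.872% in C1q macrophages. It held Cxcl1 at 110.1 CPM and 206 CPM.

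After thinning to 2000 UMIs, 11.2% of monocytes (9.19 to 13.4) labelled WT and 45.1% (38.9 to 51.4) of those of the Ring1AKO library had a Cxcl1 UMI. In C1q macrophages the shares were 25.2% (18.1 to 33.4) and 56.9% (49.7 to 64.0), with exact binomial intervals that do not overlap. Neutrophils had 10.4% (6.58 to 15.5) and 14.8% (10.4 to 20.3), with overlapping intervals. B cells, which should lack the transcript, had 1.48% and 1.98% at median depths of 4195 and 4322 UMIs before thinning. Thinning left out 43 and 51 neutrophils, 57 and 20 monocytes, 97 and 103 C1q macrophages and 22 and 107 B cells with fewer UMIs. Without it, 16.4% and 50.5% of monocytes and 27.2% and 51.7% of C1q macrophages, whose median depths were 3442 and 3847 UMIs, had a Cxcl1 UMI. Before thinning, the 96 WT monocytes with the most Cxcl1, about 10% of the class, held 96.7% of its UMIs. The 28 such Ring1AKO monocytes held 54.2%, so that the transcript was spread over a larger share of the class. The number of monocytes with a Cxcl1 UMI was not larger, at 156 of 951 and 139 of 275. Whether the share rose because the class held fewer cells without the transcript was not tested. In neutrophils it stayed with few cells, the top 10% holding 99.2% and 93.3%, and a single neutrophil of the WT library held 25.3% of the UMIs.

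Dendritic and CD4 T cells held little Cxcl1. Dendritic cells had 21.2 CPM (16.5 to 26.7) and 85.3 CPM (75.8 to 95.7), from 10 and 29 cells with a UMI. The log2 ratio of 1.99 (1.63 to 2.41) came down to 0.56 among dendritic cells with fewer than 4000 genes. CD4 T cells had 20 UMIs (5.08 CPM, 3.104 to 7.85) and 58 UMIs (13.5 CPM, 10.2 to 17.4), of which free RNA made up 54.8% and 49.8%. Their thinned shares of cells with a UMI, 0.676% (0.184 to 1.72) and 3.44% (2.05 to 5.37), overlapped those of B cells.

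**Figure D2:**
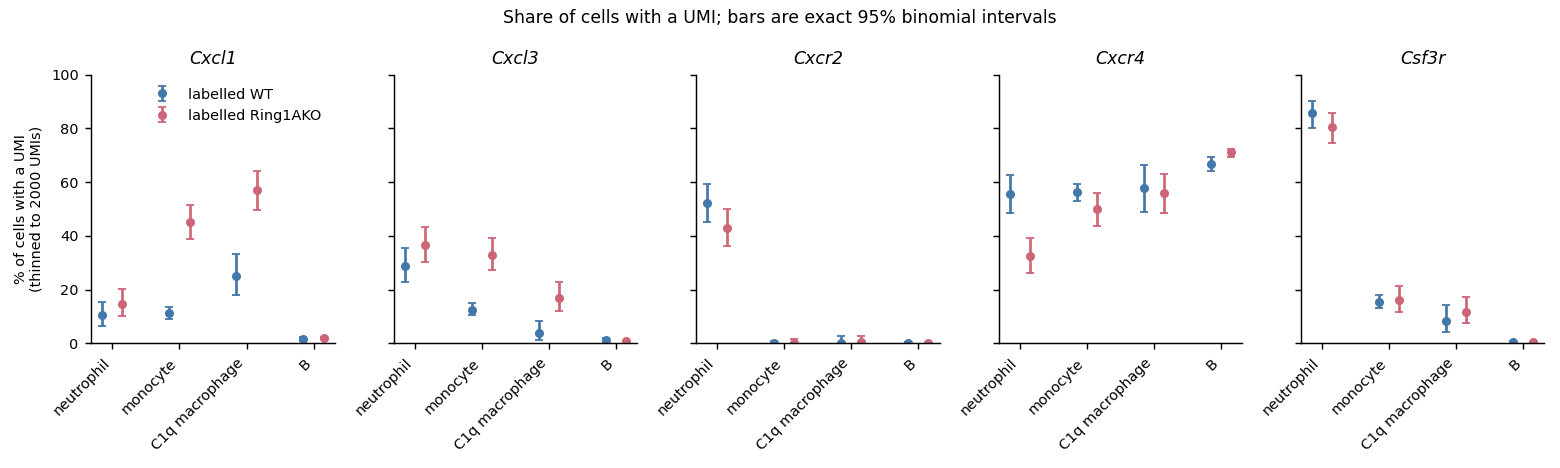
Percent of cells with at least 1 UMI of Cxcl1, Cxcl3, Cxcr2, Cxcr4 and Csf3r after each cell was thinned to 2000 UMIs, in neutrophils, monocytes, C1q macrophages and B cells, with exact 95% binomial intervals, for WT (blue) and Ring1AKO (red). Cxcl1 went from 11.2% to 45.1% of monocytes and Cxcr4 from 55.7% to 32.4% of neutrophils.

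Cxcl3, a close relative of Cxcl1 and Cxcl2, had the same level in neutrophils of both libraries within counting error, 1338 CPM (1269 to 1409) and 1391 CPM (1326 to 1457), a log2 ratio of 0.06 (-0.05 to 0.16). Monocytes had 296 CPM (284 to 307) and 998 CPM (955 to 1042), a log2 ratio of 1.75 (1.67 to 1.84). In C1q macrophages 68 UMIs were counted in the WT library (53.6 CPM, 41.6 to 67.9) and 485 in the Ring1AKO library (315 CPM, 288 to 345). The log2 ratio of 2.54 (2.19 to 2.94) in C1q macrophages was the largest of any member tested in the 5 classes, and the UMIs came from 13 and 57 cells. Thinned shares of cells with a Cxcl3 UMI were 12.5% (10.4 to 14.9) and 32.9% (27.2 to 39.1) in monocytes and 3.704% (1.21 to 8.43) and 16.9% (11.9 to 22.9) in C1q macrophages, against 1.15% and 0.714% in B cells. Dendritic cells had 48 and 84 Cxcl3 UMIs in 7 and 13 cells, and the sign of their ratio of 0.77 changed under 3 of 12 alternative settings.

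Since Cxcl1, Cxcl2 and Cxcl3 differed in monocytes and C1q macrophages alike, the classes were also summed, a choice made after the values were seen. Over both classes together Cxcl1 was 324 CPM and 1620.4 CPM (log2 ratio 2.32), Cxcl2 was 5824 CPM and 10902 CPM (0.90) and Cxcl3 was 265 CPM and 706 CPM (1.41). The sum held 951 monocytes and 232 C1q macrophages in the WT library and 275 and 298 in the Ring1AKO library, so that these ratios hold the makeup of the sum as well as the level, and that of Cxcl1 lay above those of both classes and that of Cxcl3 below them. The monocyte values moved with the higher level of C1q macrophage markers given above, whose part in them was not tested.

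In CD4 T cells Cxcl3 went the other way, from 82.3 CPM (73.6 to 91.8) in the WT library to 40.5 CPM (34.7 to 46.9) in the Ring1AKO library, a log2 ratio of -1.02 (-1.30 to -0.76). Most of it lay in the cells with a UMI of Il17a, the cytokine of type 17 helper T cells that induces neutrophil chemokines in other cells. There were 84 such CD4 T cells in the WT library and 47 in the Ring1AKO library. The Il17a-positive cells of the WT library had 336 CPM (294 to 383) of Cxcl3 and the Il17a-negative ones 29.2 CPM (23.6 to 35.7), a log2 ratio of positive over negative of 3.52 (3.18 to 3.89). In the Ring1AKO library they had 199 CPM (163 to 241) and 17.6 CPM (13.6 to 22.3), a log2 ratio of 3.496 (3.05 to 3.97). Cxcl3 thus stood at about the same multiple of its level in the Il17a-negative cells in both libraries. The log2 ratio of Ring1AKO over WT was -0.75 (-1.10 to -0.42) within the Il17a-positive cells and -0.73 (-1.21 to -0.27) within the Il17a-negative ones, both within 2-fold. The ratio of -1.02 over all CD4 T cells thus holds the share of Il17a-positive cells as well as the level. Among all tested genes of CD4 T cells, 3.58% of 8790 were at least 2-fold higher in the Il17a-positive cells of the WT library and 4.52% of 8952 in those of the Ring1AKO library, the genes of type 17 cells Il17f and Il22 among them.

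**Figure D3:**
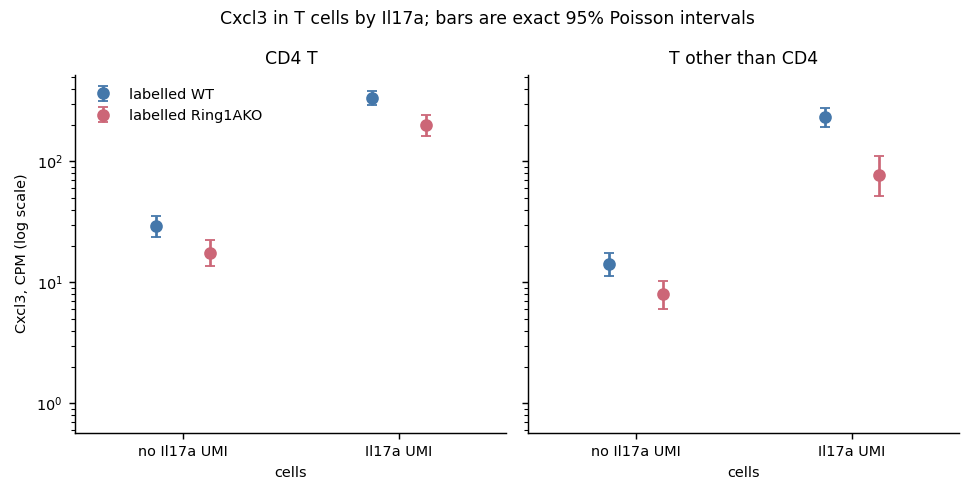
Level of Cxcl3 in T cells without and with an Il17a UMI, in CPM on a log axis with exact 95% Poisson intervals, for CD4 T cells (left) and other T cells (right) labelled WT (blue) and Ring1AKO (red). In CD4 T cells the level went from 29.2 to 336 CPM with Il17a in the WT library and from 17.6 to 199 CPM in the Ring1AKO library.

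The Cxcl3 of these T cells came from few cells. Of the 84 Il17a-positive CD4 T cells of the WT library, 17 had a Cxcl3 UMI, and of the 47 of the Ring1AKO library, 8 had one. The cell with the most held 72 of 229 and 44 of 108 UMIs, and without it the log2 ratios of positive over negative cells were 2.98 and 2.75. After thinning, 13.1% (6.72 to 22.2) and 12.8% (4.83 to 25.7) of Il17a-positive cells had a Cxcl3 UMI, and 1.77% (0.813 to 3.34) and 1.26% (0.463 to 2.72) of Il17a-negative cells, whose share was near that of B cells. Free RNA made up 2.98% and 7.69% of Cxcl3 in CD4 T cells. In T cells other than CD4 T cells the log2 ratios of positive over negative cells were 4.03 (3.63 to 4.45) and 3.30 (2.58 to 3.94). There 10 and 5 Il17a-positive cells had a Cxcl3 UMI, the cell with the most held 53 of 118 and 18 of 29 UMIs, and without it the ratios were 3.18 and 1.98.

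Since doublets were kept, transcripts of myeloid cells were counted in the same cells. Of the 17 Il17a-positive CD4 T cells of the WT library with Cxcl3, 12 had no Cxcl2 UMI, and of the 8 of the Ring1AKO library, 5 had none. Cxcl2 itself was 353 CPM in Il17a-positive and 86.6 CPM in Il17a-negative cells of the WT library, but 113 of its 240 UMIs lay in 1 cell, and 180 of 235 UMIs of Lyz2, a lysozyme gene of myeloid cells, also lay in 1 cell. In the Ring1AKO library Cxcl2 was 60.9 CPM (41.9 to 85.5) and 103 CPM (92.9 to 114), lower with Il17a. Neither Cxcl1 nor Cxcl5 was counted above 11 UMIs in the Il17a-positive cells of either library.

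Cxcl5, which epithelial and stromal cells make, was all but absent from the immune classes. Neutrophils held 1 and 0 UMIs, monocytes 2 and 0, C1q macrophages and dendritic cells 0 in both libraries and CD4 T cells 0 and 2. The count of 0 in C1q macrophages allows a level of up to 2.36 CPM in the WT library and 1.95 CPM in the Ring1AKO library, taking 3 UMIs as the limit. Of the 196 and 59 Cxcl5 UMIs in all kept cells, 159 and 54 lay in barcodes gated by collagen genes as fibroblasts, 82 and 64 in number. There the level was 246 CPM (209 to 287) and 122 CPM (91.4 to 159), a log2 ratio of -0.999 (-1.49 to -0.56), from 16 and 8 barcodes with a UMI. These barcodes are not what the CD45 gate selects, and 12.2% and 10.9% of them had a UMI of Ptprc, which encodes CD45, against 92.2% and 81.3% of neutrophils. They also carried Cxcl1, at 1142 CPM (1061 to 1227) and 1883 CPM (1757 to 2015), a log2 ratio of 0.72 (0.58 to 0.87).

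**Figure D4:**
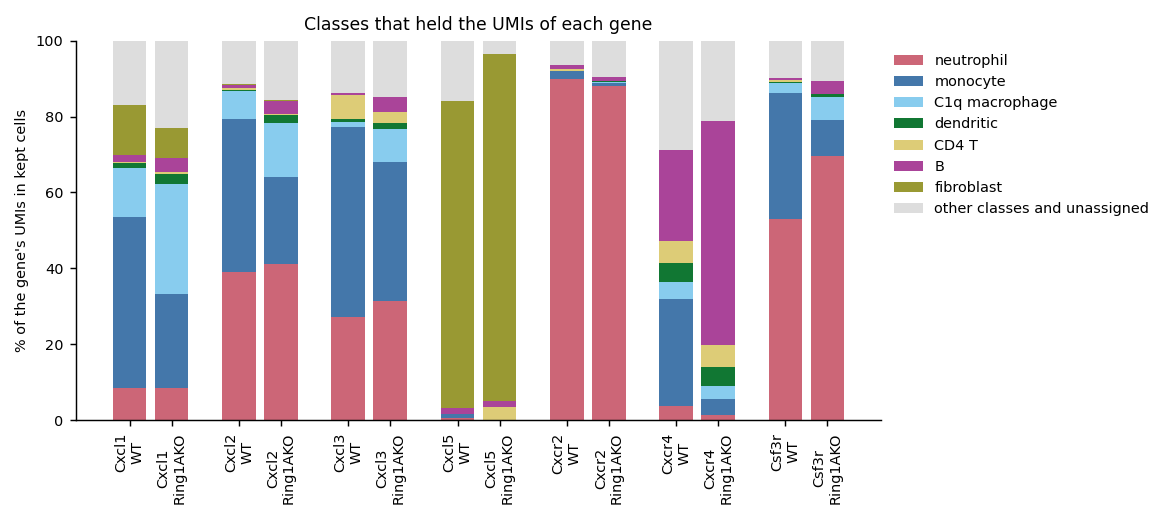
Percent of the UMIs of each gene in kept cells that lay in each class, as stacked bars for the WT library (left of each pair) and Ring1AKO (right). Neutrophils held 89.98% and 87.98% of Cxcr2, fibroblast-gated barcodes 81.1% and 91.5% of Cxcl5, and monocytes 45.1% and 24.9% of Cxcl1.

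The source of each transcript among all kept cells followed both its level and the number of cells in a class. Monocytes made up 15.2% (14.3 to 16.1) and 3.25% (2.88 to 3.64) of the kept cells, and they held 45.1% of all Cxcl1 UMIs in the WT library and 24.9% in the Ring1AKO library. C1q macrophages, at 3.705% and 3.52% of the cells, held 12.9% and 29.0%. For Cxcl2 the shares of neutrophils were 39.0% and 41.3%, of monocytes 40.5% and 22.7% and of C1q macrophages 7.28% and 14.3%. Over all kept cells Cxcl1 was 90.7 CPM (88.3 to 93.1) and 155 CPM (153 to 158), while Cxcl2 was 1977 CPM (1966 to 1988) and 1521 CPM (1512 to 1531) and Cxcl3 was 83.8 CPM (81.5 to 86.1) and 80.3 CPM (78.2 to 82.5). Of the 3 ligands only Cxcl1 was higher over all cells of the Ring1AKO library. B cells went from 1235 to 3746 cells and take part in these totals.

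Cxcr2, the receptor of the 4 ligands, was almost confined to neutrophils, with 413 of 459 UMIs in the WT library and 410 of 466 in the Ring1AKO library. Its level in neutrophils was 391 CPM (354 to 430.2) and 326 CPM (295 to 359), a log2 ratio of -0.26 (-0.46 to -0.06). Thinned shares of neutrophils with a Cxcr2 UMI were 52.2% (45.1 to 59.3) and 43.1% (36.4 to 49.9), with overlapping intervals, against 0.0824% and 0.11% in B cells. Every other one of the 5 immune classes compared had fewer than 10 Cxcr2 UMIs in each library, as did B cells. Plasma cells had 3 and 17. The neutrophils thus carried both the receptor and, at a far higher count, its ligand Cxcl2.

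Csf3r was highest in neutrophils, at 1215 CPM (1149 to 1283) and 860.3 CPM (810 to 913), a log2 ratio of -0.50 (-0.62 to -0.38). The median neutrophil had 5 and 4 Csf3r UMIs, although the neutrophils of the Ring1AKO library were deeper, with medians of 4687 UMIs in all against 3937.5. After thinning, 85.6% (79.9 to 90.1) and 80.6% (74.6 to 85.6) of neutrophils had a Csf3r UMI, so that most neutrophils of both libraries carried it. In monocytes it was 91.2 CPM (85.0 to 97.8) and 70.05 CPM (59.1 to 82.5), and in C1q macrophages 54.4 CPM (42.3 to 68.8) and 61.7 CPM (49.96 to 75.5). Dendritic and CD4 T cells had at most 12 UMIs.

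Cxcr4, the receptor of the marrow retention signal, was counted in all classes and, of the 5 immune classes compared, differed most in neutrophils. Neutrophils of the WT library had 597 CPM (551 to 645) and those of the Ring1AKO library 292 CPM (263 to 323), a log2 ratio of -1.03 (-1.22 to -0.84). Thinned shares of neutrophils with a Cxcr4 UMI were 55.7% (48.6 to 62.7) and 32.4% (26.2 to 39.1), with intervals apart, and 66.4% and 48.3% without thinning. Among the 5 classes the direction differed. Monocytes had 536 CPM (520.4 to 551) and 493 CPM (463 to 525) and C1q macrophages 590.3 CPM (549 to 634) and 579.8 CPM (542 to 619), so that the ratio in C1q macrophages, -0.03 (-0.17 to 0.12), was within counting error. Dendritic cells had 250.05 CPM (233 to 268) and 364 CPM (344 to 385), a log2 ratio of 0.54 (0.41 to 0.67), and CD4 T cells 241 CPM (226 to 257) and 339 CPM (322 to 357), a ratio of 0.49 (0.37 to 0.61). B cells, where Cxcr4 is part of follicle organization, had 597 CPM (579 to 616) and 778 CPM (766 to 791). Neutrophils thus had the same level as B cells in the WT library within counting error, and the lowest level of these 6 classes in the Ring1AKO library, where its interval touched that of CD4 T cells.

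**Figure D5:**
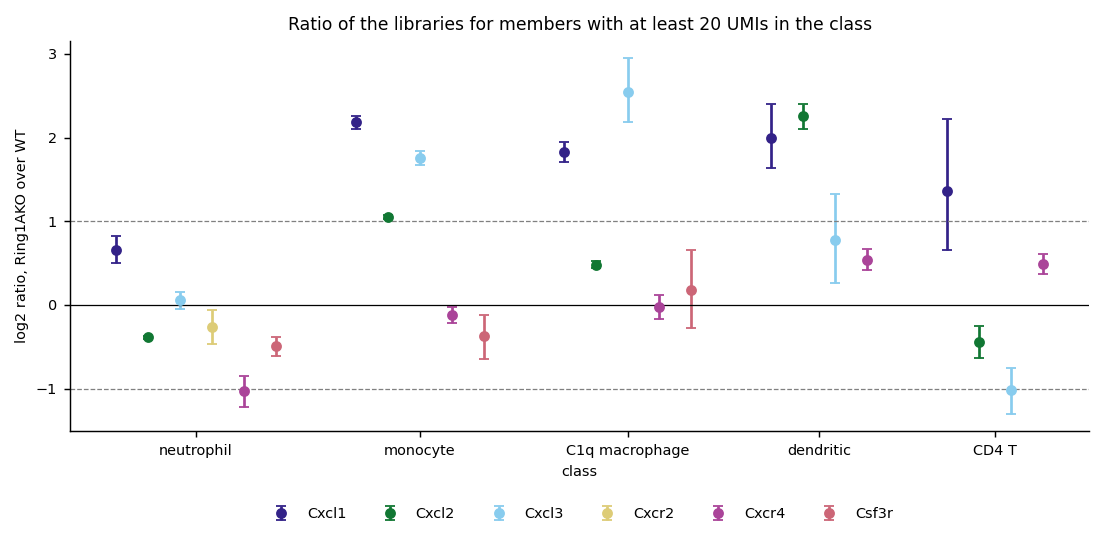
Log2 ratio of Ring1AKO over WT for each member with at least 20 UMIs over both libraries in a class, with exact conditional 95% intervals for counting error; dashed lines mark 2-fold. In monocytes and C1q macrophages Cxcl1 (2.18 and 1.83) and Cxcl3 (1.75 and 2.54) lay above 2-fold, and in neutrophils Cxcr4 (-1.03) lay at it.

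The members were chosen with earlier results of these data known, so that the counts of members are a description only. Genes were compared in a class when the libraries together had at least 20 UMIs, and a gene was counted when it was at least 2-fold higher or lower. In monocytes 3 of 5 members were, all higher (2 with each cell weighted equally, where Cxcl2 was at 0.98), where 11.9% of 9642 genes were. In C1q macrophages 2 of 5 members were, both higher, where 7.36% of 7784 genes were, and in dendritic cells 2 of 4, both higher, where 9.18% of 9547 were. In neutrophils 1 of 6 members was, Cxcr4, on the lower side and with an interval that spans 2-fold (-0.98 with no lead asked between marker lists and -0.93 with each cell weighted equally, where Cxcl1 at 1.15 was the member past 2-fold instead), where 13.8% of 4924 genes were, a share of members near the background. In CD4 T cells 1 of 4 members was higher (Cxcl1) and 1 lower (Cxcl3), where 6.53% of 10053 genes were either. The median log2 ratio of the members was 1.05 in monocytes, where that of all genes was -0.18, 0.48 in C1q macrophages against -0.01, 1.38 in dendritic cells against -0.16, -0.32 in neutrophils against -0.17 and 0.02 in CD4 T cells against -0.04. The dendritic median depended on the processing. It was 0.36 with fewer than 4000 genes per cell and 2.20 without the top cell of each member.

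Of 46 other genes of neutrophil recruitment, 36 could be compared in neutrophils, 38 in monocytes and 35 in C1q macrophages. In monocytes 6 were at least 2-fold higher and 2 lower, in C1q macrophages 2 higher and none lower, and in neutrophils 3 higher and 2 lower, where 11.9%, 7.36% and 13.8% of all genes were either. In neutrophils and C1q macrophages the share of the list was thus near that of all genes. Of 33 compared in dendritic cells 5 were higher and 2 lower, and of 34 in CD4 T cells 0 were higher and 3 lower, against 9.18% and 6.53% of all genes. Csf3, which encodes the ligand of Csf3r, was the gene of the list that was at least 2-fold higher in each of neutrophils, monocytes and C1q macrophages. It went from 123 to 333 CPM in neutrophils (log2 ratio 1.43, 1.15 to 1.73), from 48.5 to 142 CPM in monocytes (1.55, 1.33 to 1.77) and from 12.6 to 72.8 CPM in C1q macrophages (2.45, 1.77 to 3.39). The ligand thus was higher in the same library in which Csf3r of neutrophils was lower.

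Among the receptors for other attractants, the formyl peptide receptors Fpr1 and Fpr2 and the complement receptor C5ar1 were higher in monocytes, from 5.69 to 28.2 CPM (log2 ratio 2.31), from 71.2 to 153 CPM (1.11) and from 173 to 497 CPM (1.52). Of the inducing cytokines, Il1a went from 169 to 459.7 CPM in monocytes (1.44), whereas Il1b, the more abundant one, stayed within 2-fold in neutrophils (23649 and 14195 CPM), monocytes (12001 and 13968 CPM) and C1q macrophages (8470.1 and 8233 CPM). Pf4, known as a platelet chemokine, had 34 UMIs in monocytes of each library (3.87 and 16.5 CPM, log2 ratio 2.10). It was far higher in C1q macrophages, at 463 and 753 CPM (0.70). The part of C1q macrophage transcripts in the monocyte value was not tested. Il17a and Il22, which are T cell and innate lymphoid cytokines, were lower in barcodes gated as monocytes, from 9.67 to 1.95 CPM (85 and 4 UMIs, -2.01, -4.22 to -0.90) and from 18.4 to 7.78 CPM (162 and 16 UMIs, -1.16, -2.08 to -0.50). Doublets were kept, and Il22 was 12419 and 11141 CPM in cells gated as ILC3. Which cells these UMIs came from was not tested, and no change in monocytes is read from them. The attractant Ccl6 was higher in C1q macrophages, from 239.6 to 575 CPM (1.26).

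In neutrophils the enzyme cofactor of leukotriene synthesis Alox5ap was higher, from 1182 to 2512 CPM (log2 ratio 1.09, 0.99 to 1.18). Rgs18, a brake on receptor signalling, had 7 and 20 UMIs (1.14, -0.04 to 2.75), past 2-fold but within counting error. Cxcr1, a related chemokine receptor, had 29 and 12 UMIs (-1.46, -2.63 to -0.51) and the chemokine Cxcl16 had 26 and 10 (-1.55, -2.85 to -0.53). Of the signalling genes, the feedback inhibitor Socs3 was 345 and 245 CPM in neutrophils (-0.49), within 2-fold. The chemokine Ccl3 was 5464 and 4637 CPM (-0.24) in neutrophils. Ppbp was at 0 in neutrophils of both libraries. In CD4 T cells Il17a itself went from 384 to 182 CPM (-1.08, -1.20 to -0.95), Il17f from 116 to 21.6 CPM (-2.41, -2.76 to -2.09) and Il22 from 302 to 74.9 CPM (-2.01, -2.19 to -1.83), the 3 genes of the list past 2-fold there.

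Some cells had UMIs of more than 1 member. Of the 63 and 154 C1q macrophages with a Cxcl1 UMI, 60 and 152 also had Cxcl2, and of the 13 and 57 with Cxcl3, 8 and 49 also had Cxcl1. Among all C1q macrophages 72.8% and 75.2% had a Cxcl2 UMI. Of the neutrophils of the WT library 16 had both Cxcl1 and Cxcl3, 13 had Cxcl1 alone and 61 Cxcl3 alone, and of those of the Ring1AKO library 16 had both, 38 Cxcl1 alone and 82 Cxcl3 alone. Of the neutrophils, 106 of 244 and 85 of 267 had UMIs of both Cxcr2 and Cxcr4. Singly, Cxcr2 was found in 62.7% and 60.3% of neutrophils and Cxcr4 in 66.4% and 48.3%. Counts of cells with both genes follow the depth of the cells as well as their expression. They were not compared with those expected from the single shares.

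Over 26 profiles, 13 classes in each library, the genes most like each member in log2(CPM + 1) were found among genes with at least 100 UMIs. Cxcl2 went with Dmxl2 (Pearson r 0.956), Tarm1 (0.938) and Sgms2 (0.922), and Csf3r with Trem3 (0.954), Sirpb1b (0.95) and Fpr2 (0.944). Cxcl1 went with Ier3 (0.892), Mtus1 (0.882) and Hmox1 (0.8701), and Cxcl3 with Rnd1 (0.864), Fam71f2 (0.856) and Ccr1 (0.852). Cxcr2 went with Olfm4 (0.988), Mgam (0.988) and Gm20406 (0.986), and Cxcl5 with Sdk1 (0.993), Pcsk6 (0.992) and Loxl1 (0.992), genes counted in 1 class above all. Cxcr4 went with Hcls1 (0.874), Nckap1l (0.859) and Malt1 (0.858). The profiles share libraries and free RNA, and these values are a description with no test.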

How the data were processed

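The authors deposited unfiltered matrices of raw UMI counts per gene and barcode, with no normalization. Their version of Cell Ranger is given differently by the sources, as 4 in the file headers and 6.0.2 in the submitters' processing notes, which name the build mm39, whereas the methods name mm10. The files hold no coordinates, and those printed are of GRCm38. The mouse pools hold 1 library each, with 74414511 and 81862096 UMIs in all barcodes.

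Barcodes were filtered and gated with Python 3.11.15, numpy 2.4.6, scipy 1.17.1 and pandas 2.3.3. For each of 17 marker lists, log2(1 + UMIs per 10000) of each marker was divided by its 99th percentile among non-zero values, limited to 1 and averaged, and a barcode took the leading list at a score of at least 0.2 and a lead of at least 0.05. T cells with Cd4 and without Cd8a or Cd8b1 were called CD4 T. The scoring rule was set after the data were seen, and the members and lists were chosen with earlier results of these data known. Doublets and ribosomal-rich cells were kept. Free RNA was the sum of barcodes under 100 UMIs, scaled by Igha, Igkc and Jchain in each class. Pathway genes were named when 2-fold apart in neutrophils, monocytes or C1q macrophages, or first of their role, with 1 gene not reported here. Il1b, Il17a, Il17f and Il22 in T cells, Lyz2 and Ptprc were named after their values were seen. Symbols were taken from the files. The ratio was tested on simulated counts with Poisson error only. These held no spread between cells or mice, so that the test checks the calculation alone. For ratios and counts, 11 alternatives were planned and 2 added after seeing the data.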

Additional observations from a re-analysis of the deposited data

Results flagged for a closer look

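The log2 ratio of Cxcl3 was 3.56 higher in C1q macrophages than in CD4 T cells, 2.54 against -1.02, so that the libraries differed in opposite directions in these classes. The difference between the classes was not tested.

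Cxcl5 was counted in fibroblast-gated barcodes, outside the leukocytes that were compared, with 159 UMIs in the WT library and 54 in the Ring1AKO library, where each of the 5 immune classes had at most 2 UMIs per library.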

How the results depend on the processing

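No paired analysis was possible because WT and Ring1AKO have 1 library each. Of 62 recomputed counts of members past 2-fold, 58 stayed within 1.5 times the reported count, a limit that lets 3 and 2 pass as alike. Among those 58, the monocyte count of 3 became 2 with each cell weighted equally, where Cxcl2 was at 0.98. The dendritic count of 2 became 3 without the top cell of each member, and the CD4 T count of 2 became 3 with no lead asked. Beyond the limit lay 4 counts. In CD4 T cells the count of 2 became 1 with a lead of 0.15 between marker lists and 1 with less than 40% ribosomal UMIs, in dendritic cells 2 became 1 with fewer than 4000 genes per cell, and in neutrophils 1 became 0 with no lead asked, where Cxcr4 was at -0.98. With each cell weighted equally the count in neutrophils was still 1, but the gene was Cxcl1 and not Cxcr4. The cause was not tested. The log2 ratio of Cxcl1 lay between 2.03 and 2.27 in monocytes and between 1.68 and 1.96 in C1q macrophages, that of Cxcl2 in monocytes between 0.98 and 1.07, where each cell weighted equally gave the lowest value, that of Cxcl3 between 1.54 and 1.78 in monocytes and between 2.25 and 3.15 in C1q macrophages, and that of Cxcr4 in neutrophils between -1.22 and -0.93. Cxcl1 in neutrophils lay between 0.43 and 1.15. Less certain were Cxcl2 in CD4 T cells, from -1.20 to 0.52, and Cxcl3 in dendritic cells, from -0.49 to 2.18, where the signs changed. Of 288 recomputed log2 ratios of single members, 50 moved past the limit set for them, as did 9 of 60 median log2 ratios. Shares of cells with a UMI held less well, as 17 of 32 recomputed shares moved. Depth limits the members with few UMIs, Cxcl5 in leukocytes and Cxcr2 outside neutrophils.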

Other observations

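Ptprc, which encodes the CD45 protein used for the sort, was lower in the Ring1AKO library in each of the 5 immune classes, a result seen after the values were computed. It went from 1448 to 765 CPM in neutrophils, from 1229 to 637 CPM in monocytes, from 879 to 633 CPM in C1q macrophages, from 602 to 375 CPM in dendritic cells and from 1435 to 803 CPM in CD4 T cells. Each difference was within 2-fold. The median log2 ratio of all genes was also below 0 in these classes, at -0.17, -0.18, -0.01, -0.16 and -0.04 in the same order. How many genes were lower in all 5 classes was not counted. Cells with a Ptprc UMI made up 92.2% and 81.3% of neutrophils, 97.0% and 91.6% of monocytes, 91.4% and 87.6% of dendritic cells and 100% and 97.5% of CD4 T cells, whereas among C1q macrophages the share was 68.5% and 72.8%. These shares were not thinned, and median depths differed, at 9627 and 7533 UMIs in monocytes and 3937.5 and 4687 in neutrophils.

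Innate lymphoid cells, outside the classes compared above, also held ligand transcripts. In cells gated as ILC3, the innate counterpart of type 17 T cells, Cxcl3 had 15 UMIs (17.9 CPM) in the WT library and 97 UMIs (84.7 CPM) in the Ring1AKO library, in 8 and 16 cells. In cells gated as ILC2 Cxcl2 was 1762 and 960.1 CPM, with a UMI in 79 and 44 cells. The median ILC2 had 1 and 0 Cxcl2 UMIs, and the cell with the most held 28.2% and 20.4% of them. Whether cells with many were doublets, which were kept, was not tested, and no difference is read from these levels.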
